A study of Arabidopsis thaliana with 236 samples.

Results

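Cortex cells sorted from Arabidopsis thaliana Col-0 roots were compared between plants inoculated with Sinorhizobium meliloti (rhizobium) and untreated plants (standard), 20 and 24 h after treatment. The 12 arrays, of 236 in the series, were taken by their sample titles: 3 rhizobium arrays at 20 h, 3 rhizobium arrays at 24 h, 3 standard arrays at 20 h and 3 standard arrays at 24 h. All plants had grown for 9 days at 22 °C on plates with 0.1 mM KNO3 and 30 mM sucrose in 16 h of light and 8 h of darkness; the labels also give an age of 12 days. At dawn the rhizobium group received a bacterial culture at an OD600 of 0.8 on fresh 0.1 mM KNO3, and the standard group went to fresh 0.1 mM KNO3 alone. Further groups used here were cortex cells moved to 5 mM KNO3 (nitrogen, 2 arrays at 20 h and 3 at 24 h) and pericycle cells of the rhizobium (3 and 4 arrays) and standard (2 and 3 arrays) treatments. Pericycle and cortex plants both carried GFP reporters, whose promoters the labels do not name. Whole roots were turned into protoplasts before sorting in every group. Nothing in the labels ties a replicate to its own batch of plants, so the spread between arrays may be partly technical. The p-values measure the spread within groups, pooled over all 235 arrays of the fit, pericycle included, and not that of the 12 arrays alone. The 20 h arrays fall in the dark period and the 24 h arrays at the next dawn. A locus value is the deposited log2 intensity, averaged over the rows of the locus. The response is the mean of the 20 h and 24 h differences, rhizobium minus standard.

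The cortex is the ground tissue between epidermis and endodermis, which water, nitrate and microbial signals cross on their way inwards. S. meliloti forms nitrogen-fixing nodules in the cortex of some legumes, and Arabidopsis forms none with it. Plants that meet bacteria can perceive their surface molecules through LysM and other receptor kinases and start immune gene expression, while rhizosphere bacteria often alter auxin signalling and root branching. Nitrate itself switches on its own transporters and reductases within hours and represses genes of nitrogen shortage.

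The cortex identity was checked first. The 7 cortex markers averaged 10.30 to 11.00 on cortex rhizobium arrays and 10.08 to 10.46 on cortex standard arrays, against 9.16 to 10.74 and 9.50 to 10.64 on the pericycle arrays of these treatments, so the ranges of the cell types overlap. The 9 pericycle and stele markers averaged 7.84 to 8.63 on cortex rhizobium and 7.35 to 8.12 on cortex standard arrays, against 8.53 to 9.26 and 8.01 to 9.22 on pericycle rhizobium and pericycle standard arrays. Markers of endodermis were low in both cortex groups (6.68 to 7.55 on rhizobium, 6.37 to 7.92 on standard arrays). So were those of epidermis and root hairs (6.44 to 7.23 on rhizobium, 6.15 to 6.91 on standard arrays). Their values on pericycle arrays are given with the pericycle comparison below.

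2 of the 6 rhizobium arrays stood apart. Replicate 2 at 20 h and replicate 2 at 24 h had the lowest medians over loci of the 12 arrays, 8.41 and 8.50, where the others lay between 8.81 and 8.93. They correlated at 0.883 to 0.914 with the other rhizobium arrays and at 0.877 with each other, while the other 4 rhizobium arrays correlated at 0.952 to 0.970 among themselves and the standard arrays at 0.929 to 0.966. Named calls lost without both arrays are marked as such, and the leading counts are also given without them. On all 12 arrays limma called 1209 of 27143 loci (4.45%) at a Benjamini-Hochberg adjusted p below 0.05: 547 higher (2.02%) and 662 lower (2.44%) on rhizobium arrays, 980 of them by at least 1 log2 unit. Without both replicate 2 arrays it called 459 loci (1.69%), 160 higher (0.589%) and 299 lower (1.1%), 447 of which were among the 1209. Leaving out single arrays mattered as well: 748 loci were called without rhizobium replicate 2 at 20 h, 691 without rhizobium replicate 2 at 24 h and 791 without standard replicate 1 at 24 h. The median difference over all loci was 0.09. When every array was centred on its own median it became 0.25, and the share of calls that were higher became 64.9% in place of 45.2%. It was 55.6% of 2796 calls with the 12 arrays fitted alone and 55.3% of 2761 calls with cortex arrays alone. Whether higher or lower loci were the more numerous thus depended on the scaling and on the arrays in the fit. The number of calls depended on the arrays in the fit as well.

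Genes of the heat shock response had the lowest median of the gene lists described here. They encode chaperones that keep unfolding proteins soluble, and the heat shock factors that induce them. Of 25 members, 21 were lower on rhizobium arrays and none higher, with a median difference of -3.96; 17 were lower without both replicate 2 arrays. For 23 of them all 6 rhizobium arrays lay below all 6 standard arrays, which held for 961 loci in all (3.54%). HSP22.0, a small heat shock protein of the endoplasmic reticulum, had 4.97, 5.42 and 5.02 on rhizobium arrays at 20 h and 5.19, 5.34 and 4.91 at 24 h, against 13.41, 12.84 and 13.43 on standard arrays at 20 h and 13.43, 13.97 and 13.67 at 24 h. The groups were far apart (-8.31 ± 0.87, SE, adjusted p = 1e-13). Its rhizobium values lie near the lower end of the table, whose lowest value is 3.69, and whether they were above background was not tested. HSP21, a plastid small heat shock protein, was lower by a difference of -5.70 ± 0.68 (adjusted p = 7.8e-11). HSP23.6-MITO, its mitochondrial relative, differed by -6.05 (adjusted p = 2.6e-12). HSFA2, the heat-induced transcription factor that sustains the response, had 7.61, 10.15 and 9.42 on rhizobium arrays at 20 h and 8.82, 9.41 and 9.82 at 24 h, against 13.17, 12.79 and 13.21 on standard arrays at 20 h and 13.30, 13.39 and 13.27 at 24 h. Every standard array was thus above every rhizobium array. HSP101, the disaggregase needed for acquired heat tolerance, fell by less (-2.83 ± 0.57, adjusted p = 0.00028), with standard arrays at 15.13 to 15.28, close to the highest value in the table (15.53).

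The high heat shock level belonged to the cortex standard arrays. The mean of the 25 genes was 9.71 to 10.66 on cortex rhizobium and 9.75 to 11.05 on cortex nitrogen arrays, against 13.33 to 14.11 on cortex standard arrays. In pericycle it was 9.53 to 10.81 on rhizobium and 9.87 to 11.37 on standard arrays, so cortex standard was the only one of these 5 groups above 11.4. Against nitrogen arrays no heat shock member was called in either direction (median -0.35), while the nitrogen response, which uses the same standard arrays, had 21 members lower (median -3.29) where 3.04% of all loci were called lower and 1.78% higher. Entering each array's heat shock mean as a covariate gave 238 calls, 159 of them among the 1209. The covariate did not overlap between rhizobium and standard arrays, so in cortex this level and the treatment cannot be told apart. APX2, an ascorbate peroxidase induced by heat and strong light, followed the same pattern, with a difference of -4.16 ± 0.65 (adjusted p = 9.6e-07) and nitrogen arrays at 5.31 to 5.90.

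**Figure D1:**
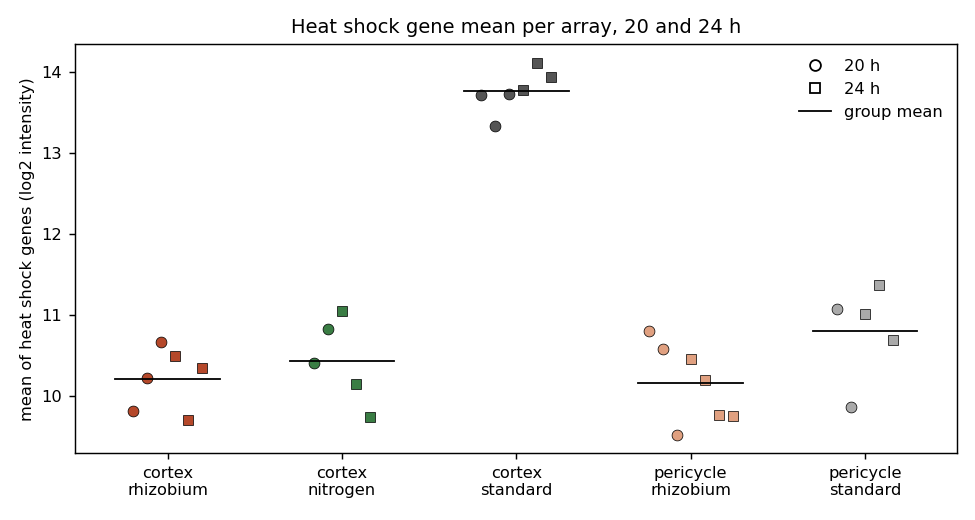
Mean log2 intensity of the 25 heat shock genes on each array at 20 and 24 h, one point per array with group means as lines, for rhizobium, nitrogen and standard arrays of cortex and for rhizobium and standard arrays of pericycle. The 6 cortex standard arrays lie between 13.33 and 14.11 and all other arrays below 11.4.

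Most chaperones of plastids and mitochondria, and some components of the nucleolus, were lower on rhizobium arrays than on standard arrays, and some of each were lower than on nitrogen arrays. These 2 lists and those of the organelle genomes were drawn up after the called loci had been seen, so their counts are descriptions. Over all loci 2.44% were called lower than on standard arrays and 1.22% lower than on nitrogen arrays. Of 12 organelle chaperones 10 were lower and none higher (median -2.98), and 4 were lower than on nitrogen arrays (median -1.63); without both replicate 2 arrays these counts were 9 and 3. CR88, the HSP90 of the plastid stroma, had 5.56, 5.56 and 7.36 on rhizobium arrays at 20 h and 7.07, 4.90 and 7.11 at 24 h, against 11.41, 9.63 and 11.58 on standard arrays at 20 h and 12.82, 12.68 and 12.50 at 24 h. Its nitrogen arrays had 10.45 and 11.09 at 20 h and 10.42, 11.16 and 11.05 at 24 h. CR88 was therefore low on rhizobium arrays alone among the cortex treatments, with differences of -5.51 ± 0.85 from standard (adjusted p = 5.5e-07) and -4.57 ± 0.90 from nitrogen (adjusted p = 5e-04). HSP89.1, the mitochondrial HSP90, differed by -4.28 ± 0.70 from standard and by -3.17 from nitrogen (adjusted p = 0.0055; 0.11 without both replicate 2 arrays). CPN60A, the alpha subunit of the plastid chaperonin that folds Rubisco, had 7.58, 6.70 and 7.89 on rhizobium arrays at 20 h and 8.80, 7.61 and 8.32 at 24 h, against 12.13, 10.79 and 12.20 on standard arrays at 20 h and 12.71, 12.89 and 12.17 at 24 h. Its groups did not overlap (-4.33 ± 0.71, adjusted p = 3.3e-06), nitrogen arrays lay between at 9.72 to 10.52, and the difference from them missed the threshold (-2.37, adjusted p = 0.091). CLPB3, the plastid disaggregase, was low on rhizobium and on nitrogen arrays alike (-3.99 ± 0.51 against standard, -0.84 against nitrogen, adjusted p = 0.77).

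Of 21 genes of the nucleolus and ribosomal RNA processing 5 were lower than on standard arrays (median -1.04) and 7 lower than on nitrogen arrays (median -2.05), none higher in either. FIB2, a fibrillarin, which methylates ribosomal RNA, had 6.47, 6.84 and 6.53 on rhizobium arrays at 20 h and 7.16, 6.07 and 7.23 at 24 h, against 9.40, 9.29 and 9.37 on standard arrays at 20 h and 11.00, 10.95 and 9.20 at 24 h. All 6 rhizobium arrays lay below all standard and all nitrogen arrays (9.93 to 11.41), with differences of -3.15 ± 0.68 (adjusted p = 0.00083) and -4.06 ± 0.72 (adjusted p = 7.6e-05). FIB1, the other fibrillarin, differed by -2.68 ± 0.52 from standard and by -4.04 from nitrogen (adjusted p = 0.00016 and 1.3e-07). FKBP53, a nuclear histone chaperone that acts on ribosomal RNA genes, differed by -4.57 ± 0.52 from standard and by -3.32 from nitrogen (adjusted p = 8.4e-12 and 2.4e-05). The array means of this list were 7.36 to 8.21 on rhizobium, 9.39 to 10.10 on nitrogen and 8.81 to 10.11 on standard arrays. Those 3 genes kept their calls without both replicate 2 arrays, and 3 members of the list were called against standard and 4 against nitrogen there in all.

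Some transcripts of the organelle genomes were lower too. Of 67 plastid genome loci 19 were lower than on standard arrays (median -0.97) and 15 lower than on nitrogen arrays. Of 94 mitochondrial genome loci 11 were lower than on standard arrays (median -0.82) and 8 lower than on nitrogen arrays. No locus of either genome was higher in either comparison. The counts against standard were 9 plastid and 1 mitochondrial loci without both replicate 2 arrays, with medians of -0.87 and -0.84; the mitochondrial count of 1 in 94 is no larger a share than the 1.1% of all loci called lower there. Against nitrogen the 15 plastid calls were all lost without those arrays, and 1 mitochondrial call was left. Markers of green tissue moved beside them: all 12 had negative differences (median -2.40), with array means of 6.11 to 7.99 on rhizobium, 6.31 to 11.38 on nitrogen and 6.90 to 12.01 on standard arrays. Only RBCS1B, a small subunit of Rubisco, was called among these 12 (-3.84, adjusted p = 0.028; 11 of 12 had an unadjusted p below 0.05), a call lost when any of 7 arrays was left out, and the part of green cells in the plastid values was not tested. In bulk sorted cells fewer cells of a type and less RNA per cell cannot be told apart.

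A part of the nitrate-induced genes was lower on rhizobium arrays, where both groups stood on 0.1 mM KNO3, and most of those calls rested on the replicate 2 arrays. Of 26 nitrate-induced genes 8 were lower than on standard arrays (median -0.35) and 9 lower than on nitrogen arrays (median -0.99). Over all loci 2.44% and 1.22% were called lower in these comparisons. After array centring 4 members of the list were lower than on standard arrays (median -0.185). NRT1.1, the nitrate transporter and sensor, had 11.13, 9.05 and 10.96 on rhizobium arrays at 20 h and 10.77, 10.11 and 10.08 at 24 h, against 12.94, 13.33 and 12.21 on standard arrays at 20 h and 12.93, 12.59 and 12.32 at 24 h. No rhizobium array reached a standard array (-2.37 ± 0.50, adjusted p = 0.00065), nor the lowest nitrogen array (11.19), although the difference from nitrogen missed the threshold (-1.72, adjusted p = 0.076). NIR1, nitrite reductase, differed by -0.996 ± 0.26 (adjusted p = 0.01) and NIA1, a nitrate reductase, by -0.72 (adjusted p = 0.02). G6PD3, which supplies reducing power for nitrite reduction in plastids, differed by -1.24 (adjusted p = 0.015). Without both replicate 2 arrays NRT1.1 alone of the 8 was still called (adjusted p = 0.034), and the list median was -0.24. Without rhizobium replicate 2 at 20 h 4 members were called, and without that at 24 h 3.

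Against arrays on 5 mM nitrate NIR1 differed by -1.66 (adjusted p = 2.3e-05), G6PD3 by -2.14 (adjusted p = 3e-05) and RFNR2, a root ferredoxin reductase, by -1.91 (adjusted p = 0.0015). LBD39 and LBD38, nitrate-induced repressors of anthocyanin synthesis, differed by -2.16 and -1.82 (adjusted p = 0.0061 and 0.002). Without both replicate 2 arrays 5 members were lower and NRT3.1, a partner protein of nitrate transporters, was higher (3.81, adjusted p = 0.034; on all arrays 2.58, adjusted p = 0.19). NIR1, G6PD3, RFNR2 and LBD39 kept their calls, and LBD38 did not (adjusted p = 0.11). Relative to standard 1 of 17 genes of nitrogen shortage was higher and 1 lower (median 0.23), and neither call was kept without both replicate 2 arrays. Relative to nitrogen arrays 4 of them were higher and 1 lower (median 0.38), where 0.413% of all loci were called higher and 1.22% lower. AMT1;1 and AMT1;3, ammonium transporters, were higher by 2.00 and 2.06 (adjusted p = 0.00059 and 0.025), GLN1;4, a glutamine synthetase, by 2.15 (adjusted p = 2.8e-05) and ASN1, an asparagine synthetase, by 1.73 (adjusted p = 0.016). AMT1;3 lost its call without both replicate 2 arrays (adjusted p = 0.071), and the other 3 kept theirs. AMT1;1 also lay above every standard array on all 6 rhizobium arrays, but its difference of 0.96 missed the threshold (adjusted p = 0.13). GDH1, a glutamate dehydrogenase, was lower than in both other treatments, by differences of -1.59 from standard (adjusted p = 0.014) and -2.12 from nitrogen (adjusted p = 0.002), both lost without those arrays (adjusted p = 0.30 and 0.10).

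Over all loci limma called 444 between rhizobium and nitrogen arrays (1.64%), 112 higher (0.413%) and 332 lower (1.22%) on rhizobium arrays; 232 were called without both replicate 2 arrays. Without replicate 2 of both treatments 17 were called, without replicate 3 171 and without replicate 1 233. GLN1;4, MGD3, FIB1 and FKBP53 were still called without both replicate 2 arrays and without replicate 2 of both treatments, whereas NIR1, CR88 and EXPA17 had adjusted p of 0.09, 0.24 and 0.99 without replicate 2 of both treatments. These comparisons share the rhizobium arrays with the response against standard. 21 loci were higher (0.0774%) and 96 lower (0.354%) in both, against 4 and 26 without both replicate 2 arrays, and 0 and 4 without replicate 2 of every treatment. All 6 rhizobium arrays lay above all nitrogen arrays at 639 loci (2.35%) and below them at 783 (2.88%); against standard arrays they lay above at 1318 loci (4.86%).

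EXPA17 had the largest difference among loci higher in both comparisons. It encodes an expansin, a protein that loosens cell walls, and is known from lateral root emergence. It had 11.16, 11.46 and 11.21 on rhizobium arrays at 20 h and 10.85, 11.20 and 11.03 at 24 h, against 7.79, 8.42 and 8.01 on standard arrays at 20 h and 8.54, 7.65 and 7.94 at 24 h. Nitrogen arrays had 9.53 and 7.13 at 20 h and 9.45, 6.54 and 7.65 at 24 h. All rhizobium arrays were thus above every array of both other treatments, by 3.09 ± 0.67 relative to standard (adjusted p = 0.00085) and 3.05 ± 0.71 relative to nitrogen (adjusted p = 0.0051). BNQ3, a small helix-loop-helix protein without a DNA-binding domain, was higher by 2.93 ± 0.71 and 2.60 (adjusted p = 0.0044 and 0.045). ACR1, a protein with ACT domains, was higher by 2.90 and 2.84 (adjusted p = 0.0036 and 0.017). NIP6;1, a boric acid channel, was higher by 2.42 and 3.26 (adjusted p = 0.037 and 0.0079), and PHT1;1, a phosphate transporter, by 2.11 and 2.51 (adjusted p = 0.033 and 0.023). MGD3, a galactolipid synthase of phosphate shortage, was higher than on nitrogen arrays by 4.62 ± 0.71 (adjusted p = 4e-06), and its difference from standard was 0.98 (adjusted p = 0.47). With PHT1;1 it made 2 of 19 phosphate starvation genes higher than on nitrogen arrays. EXPA17 and BNQ3 kept their calls against standard without both replicate 2 arrays (adjusted p = 0.01 and 0.043), and ACR1, NIP6;1 and PHT1;1 did not (adjusted p = 0.075, 0.15 and 0.074). Against nitrogen EXPA17, NIP6;1 and MGD3 kept their calls there, and BNQ3, ACR1 and PHT1;1 did not (adjusted p = 0.20, 0.19 and 0.052).

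Some auxin-induced genes were higher on rhizobium arrays. Of 14 members of the auxin response list 4 were higher and none lower than on standard arrays, with a median of 0.91 and 12 positive differences. Over all loci 2.02% were called higher and 2.44% lower. IAA2, a repressor protein whose gene auxin induces directly, had 13.64, 13.53 and 13.61 on rhizobium arrays at 20 h and 13.66, 13.41 and 13.48 at 24 h, against 12.08, 11.74 and 12.68 on standard arrays at 20 h and 11.19, 11.40 and 10.85 at 24 h. The rhizobium arrays sat close together above all standard arrays (1.90 ± 0.26, adjusted p = 1.7e-08), and nitrogen arrays were nearly as high, at 13.01 to 13.75. IAA19, of the same family, was higher by 1.22 ± 0.26 (adjusted p = 0.00086), and GH3.2, which conjugates auxin to amino acids, by 2.68 ± 0.60 (adjusted p = 0.0015). IAA30 was higher by 2.60 (adjusted p = 0.041) and lost its call when any of 7 of the 12 arrays was left out. Without both replicate 2 arrays 3 members were called (median 0.78). No auxin response gene was called against nitrogen arrays (median 0.31).

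Of 15 lateral root genes 2 were higher and 1 lower (median 0.62), where 2.02% of all loci were called higher and 2.44% lower. ARF7, the auxin response factor that starts lateral root founder cell division, had 12.65, 11.95 and 12.48 on rhizobium arrays at 20 h and 12.30, 12.56 and 12.23 at 24 h, against 11.88, 11.38 and 11.32 on standard arrays at 20 h and 11.34, 11.05 and 10.69 at 24 h. Its groups were separate, with a difference of 1.08 (adjusted p = 0.0095). EXPA17, above, was the other. HAE, a receptor kinase of cell separation that acts where lateral roots emerge, was lower (-3.00, adjusted p = 0.013), as on nitrogen arrays, which stood at 4.88 to 7.33. That call was lost without both replicate 2 arrays (adjusted p = 0.15) and without rhizobium replicate 2 at 24 h (0.062), which left 2 higher members and no lower one. Among 12 auxin transport genes ABCB1, an efflux carrier, was the one called (0.63, adjusted p = 0.042; median 0.21). It lost its call when any of 9 arrays was left out, and without both replicate 2 arrays (adjusted p = 0.18), which left no call in the list. None of 20 cell cycle genes passed the test (median -0.10; 1 at an unadjusted p below 0.05).

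Some abscisic acid and jasmonate genes were higher. Of 17 abscisic acid genes 4 were higher and 1 lower than on standard arrays (median 0.26), where 2.02% of all loci were called higher and 2.44% lower. Against nitrogen arrays no abscisic acid gene was called (median 0.48). The nitrogen response itself had 2 of them higher and 2 lower (median -0.42). HB12, a homeodomain factor induced by drought and abscisic acid, had 12.08, 12.16 and 12.37 on rhizobium arrays at 20 h and 12.81, 12.10 and 12.00 at 24 h, against 8.76, 7.17 and 10.61 on standard arrays at 20 h and 10.20, 9.99 and 9.47 at 24 h. Its groups were separate, and the standard arrays were the more scattered (2.88 ± 0.55, adjusted p = 0.00012). HB7, its closest relative, was higher by 2.72 (adjusted p = 0.026), RD29A, a marker of osmotic stress, by 1.86 (adjusted p = 7e-04) and RD26, a NAC factor, by 1.60 (adjusted p = 0.01). KIN1, a cold- and abscisic acid-induced gene, was lower (-1.09, adjusted p = 0.024). The 4 higher genes kept their calls without both replicate 2 arrays, and KIN1 lost its call. HB7 lost its call when any of 4 of the 12 arrays was left out. LEA7, a late embryogenesis abundant protein, was among the 15 loci with the largest positive differences (3.73 ± 0.83, adjusted p = 0.0013).

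Of 24 jasmonate genes 2 were higher (median 0.27): JAZ7, a repressor of jasmonate signalling (3.31 ± 0.94, adjusted p = 0.021), and JAZ2, another (0.70, adjusted p = 0.04). JAZ2 lost its call without both replicate 2 arrays (adjusted p = 0.085) and when any of 10 arrays was left out. JAZ7 lost its call when any of 3 was left out. Over all loci 2.02% were called higher. Against nitrogen arrays no jasmonate gene was called (median 0.48). DAD1, a lipase that releases the precursor of jasmonate, had 7.98, 9.34 and 10.04 on rhizobium arrays at 20 h and 10.60, 7.40 and 7.55 at 24 h, against 5.37, 5.06 and 5.15 on standard arrays at 20 h and 5.46, 5.28 and 6.10 at 24 h. These 2 groups did not overlap (3.41 ± 0.77, adjusted p = 0.0017). Nitrogen arrays, at 6.65 to 7.52, were above all standard arrays and overlapped the lowest rhizobium array (7.40).

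A few water channels were higher on rhizobium arrays in cortex. Of 14 aquaporins 3 were higher and none lower (median 0.60), where 2.02% of all loci were called higher. For 9 all rhizobium arrays lay above all standard arrays, which held for 4.86% of all loci. Against nitrogen arrays no aquaporin was called (median -0.01), and the nitrogen response itself had 2 higher (median 0.51). The list's array means were 13.28 to 13.64 on rhizobium and 13.35 to 13.85 on nitrogen arrays, against 12.46 to 13.15 on standard arrays. TIP2;1, a channel of the vacuolar membrane that carries water and ammonia, had 14.23, 14.29 and 14.58 on rhizobium arrays at 20 h and 14.53, 14.28 and 14.63 at 24 h, against 13.48, 13.47 and 12.96 on standard arrays at 20 h and 12.75, 12.66 and 12.80 at 24 h. Its groups were separate (difference of 1.41, adjusted p = 6.2e-05). PIP1;4 and PIP2;8, channels of the plasma membrane, were higher by 0.74 and 1.81 (adjusted p = 0.029 and 0.049). TIP2;1 was the 1 member still called without both replicate 2 arrays. TIP2;3, a relative of TIP2;1 that stood on the pericycle and stele list, was higher by 2.02 (adjusted p = 0.0054) and was the only one of its 9 members called. SWEET17, a fructose transporter of the vacuole, was higher by 3.59 ± 0.95 (adjusted p = 0.011; 0.065 without both replicate 2 arrays).

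Immune genes gave almost no calls. None of 20 genes of pattern-triggered immunity was called against standard by limma (median -0.16; 5 at an unadjusted p below 0.05), and WRKY53, a transcription factor of defence and senescence, was the 1 gene higher than on nitrogen arrays (2.19, adjusted p = 0.011; 0.16 without both replicate 2 arrays). Of 8 LysM receptor genes, which include receptors for bacterial and fungal oligosaccharides, and of 16 genes of camalexin and indole glucosinolate synthesis, none was called (medians 0.12 and -0.28; 1 and 3 at an unadjusted p below 0.05). Of 16 salicylic acid genes ICS1, the enzyme of its main synthetic route, was lower (-1.40, adjusted p = 0.035). It lost its call without both replicate 2 arrays (-0.91, adjusted p = 0.46), with any of 7 arrays left out, and when arrays were centred (adjusted p = 0.055). Of 19 ethylene genes ACS6, which makes the ethylene precursor, was lower (-1.40 ± 0.30, adjusted p = 0.00067). None of 16 cytokinin response genes was called (median 0.07, with 2 at an unadjusted p below 0.05). With the 12 arrays fitted alone, 5.73% of all loci were called higher and 4.57% lower. There 1 gene of pattern-triggered immunity was higher and 1 lower, and 1 LysM receptor gene was lower. Of the cytokinin response genes 2 were higher and 1 lower in that fit. Given this fit's power, changes of 1 log2 unit could easily be missed. On simulated data it found 17.9% of changes of 1, 58.2% of changes of 2 and 98.5% of changes of 4 log2 units. The simulated noise had the same spread in every group and no arrays that stood apart, so these shares need not hold for the real arrays.

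Clock and metabolic genes gave few calls. Of 13 morning clock genes 2 were lower (median -0.95), where 2.44% of all loci were called lower. Against nitrogen arrays no morning clock gene was called (median -0.23). The nitrogen response itself had 1 of them lower (median -0.66), and the pericycle response to rhizobium had none called (median -1.06). Of 13 evening genes none was called (median 0.27, with 0 at an unadjusted p below 0.05). PRR7, a morning repressor of the clock, had 6.30, 7.75 and 7.29 on rhizobium arrays at 20 h and 10.32, 10.75 and 10.99 at 24 h, against 11.36, 10.60 and 11.66 on standard arrays at 20 h and 12.92, 13.15 and 12.36 at 24 h. It was lower at each hour and higher at dawn than at night in both groups (-3.11 ± 0.78, adjusted p = 0.0064). LNK1, a coactivator of clock genes, had 9.35, 6.10 and 9.82 on rhizobium arrays at 20 h, against 12.25, 12.21 and 11.71 on standard arrays (20 h difference -3.63, adjusted p = 0.024), and differed by -0.70 at 24 h (adjusted p = 0.88). Its calls over both hours and at 20 h were lost without both replicate 2 arrays (adjusted p = 0.31 and 0.72). GPT2, a plastid glucose phosphate exchanger, was lower by a difference of -3.40 (adjusted p = 0.0018), and PAP1, an activator of anthocyanin genes, by -2.41 (adjusted p = 0.02); PAP1 lost its call when any of 4 arrays was left out. IRT2, an iron transporter, was higher by 1.91 (adjusted p = 0.037), and of 21 iron deficiency genes 1 was called in each direction. IRT2 lost its call when any of 9 arrays was left out and after renewed quantile normalization (adjusted p = 0.11).

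**Figure D2:**
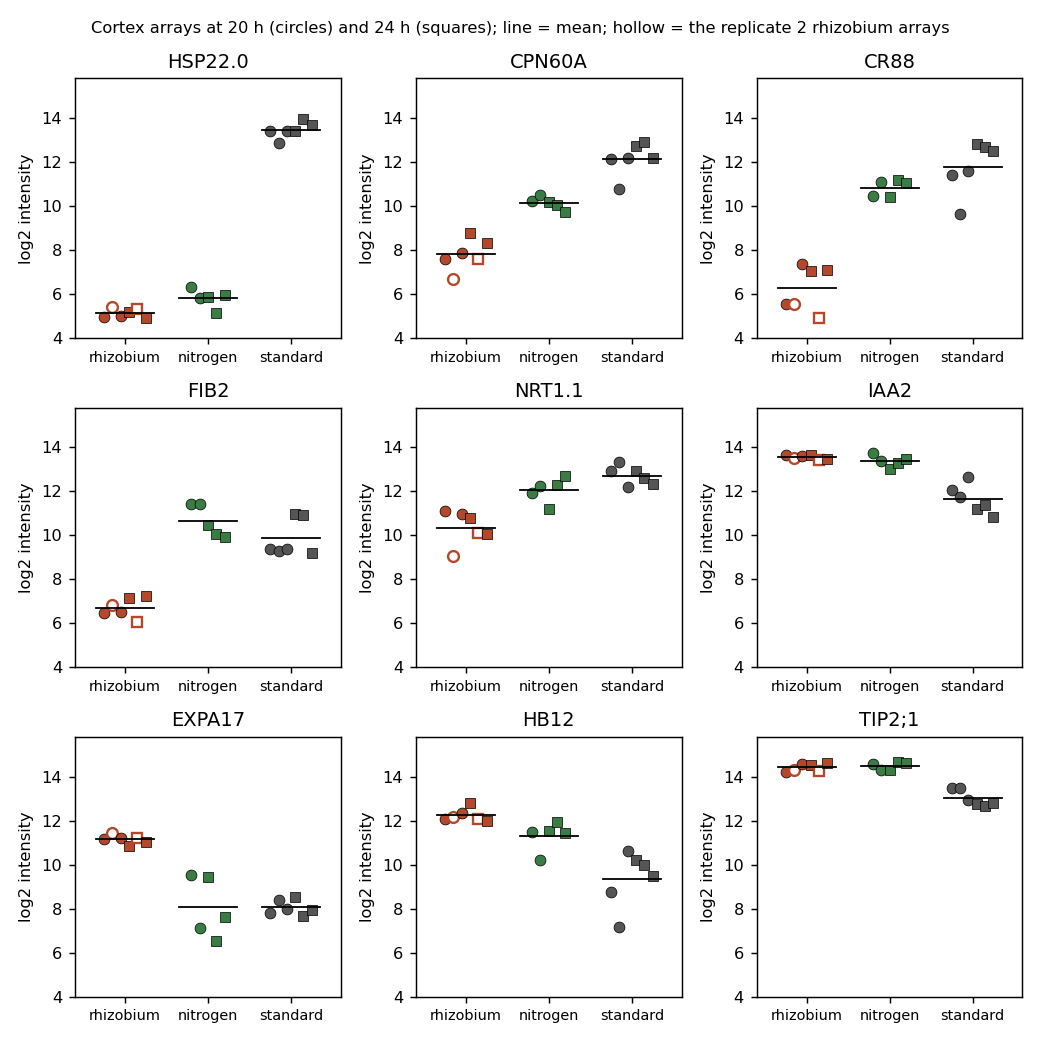
Log2 intensity of genes on each cortex array, by treatment (rhizobium, nitrogen, standard), with circles at 20 h, squares at 24 h, hollow symbols for the replicate 2 rhizobium arrays and lines at the group means. IAA2 at 13.41 to 13.66 and EXPA17 at 10.85 to 11.46 on rhizobium arrays lie above every standard array, and CR88 and FIB2 lie below every standard and nitrogen array.

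**Figure D3:**
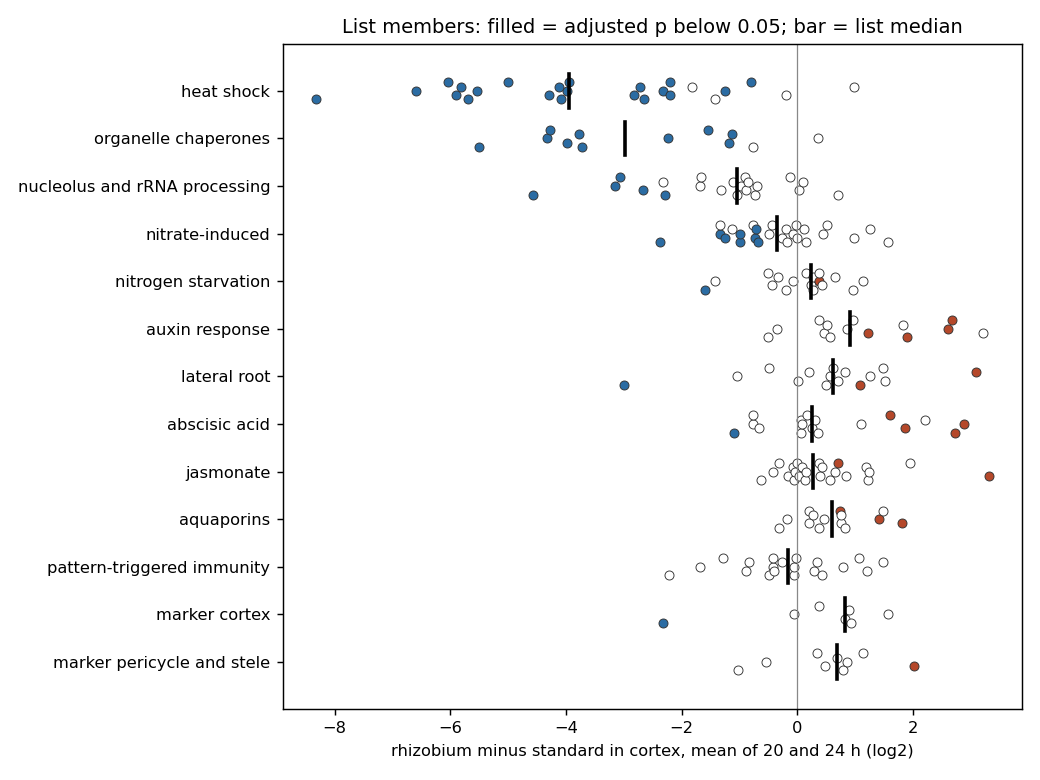
Difference of each list member between rhizobium and standard arrays in cortex (log2, mean of 20 and 24 h), one row per list, with filled points for members at an adjusted p below 0.05 and a bar at the list median. Heat shock genes and organelle chaperones lie furthest to the left, with medians of -3.96 and -2.98, and the auxin response list has 4 filled points to the right.

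The loci with the largest differences had mostly no RefSeq symbol. AT1G20070 had the largest positive one, with 12.19, 12.75 and 13.38 on rhizobium arrays at 20 h and 13.41, 12.88 and 12.10 at 24 h, against 6.02, 8.21 and 6.33 on standard arrays at 20 h and 6.60, 8.69 and 7.82 at 24 h. Its groups were well separated (5.51 ± 0.69, adjusted p = 4.8e-10), and nitrogen arrays, at 10.63 to 12.05, were also above all standard arrays. AT4G22610 and AT4G33467 were higher by 4.99 and 4.98 (adjusted p = 1e-06 and 1.9e-06). NAC045, a transcription factor of phloem sieve element differentiation, was higher by 3.39 ± 0.91 (adjusted p = 0.013), with standard arrays between 4.41 and 4.62; its call was lost without rhizobium replicate 3 at 20 h or replicate 1 at 24 h. Among lower loci AT4G21323 followed HSP22.0, with 5.24, 5.59 and 7.15 on rhizobium arrays at 20 h and 5.19, 5.39 and 5.24 at 24 h, against 12.54, 12.29 and 12.45 on standard arrays at 20 h and 13.38, 13.59 and 13.19 at 24 h (-7.28 ± 0.69, adjusted p = 9e-16). Next came AT3G08980 (-6.79) and AT5G37670 (-6.60), and AT5G37670 is a member of the heat shock list. ERDJ3A, a co-chaperone of the endoplasmic reticulum, and HSA32, a protein of lasting heat tolerance, closed the list of 15 together with HSP21 at -5.67 to -5.81. COX15, needed for the heme of cytochrome oxidase, was lower than on standard and on nitrogen arrays (-4.39 ± 0.95 and -3.99, adjusted p = 0.001 and 0.014; 0.038 and 0.18 without both replicate 2 arrays).

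No locus was called different in its response between 20 and 24 h. The 20 h difference alone gave 168 calls (0.619%), 56 higher and 112 lower, and the 24 h difference 425 (1.57%), 135 higher and 290 lower; without both replicate 2 arrays there were 62 and 84. Here too 1 array could change the count: 63 loci were called at 20 h without its rhizobium replicate 2, and 69 to 83 without 1 of its standard arrays. At 24 h 83 were called without its rhizobium replicate 2, 216 without rhizobium replicate 3 and 152 to 238 without 1 of its standard arrays. limma's test of 24 h minus 20 h called 0 loci (0%), with 557 at an unadjusted p below 0.05, or 2.05% of the loci; 1 was called without both replicate 2 arrays. CR88 differed by -4.71 at 20 h and by -6.31 at 24 h, and IAA2 by 1.43 and 2.37. HB7 and RD29A had larger differences at 20 h (4.02 and 2.55) than at 24 h (1.42 and 1.17), and neither change was called.

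**Figure D4:**
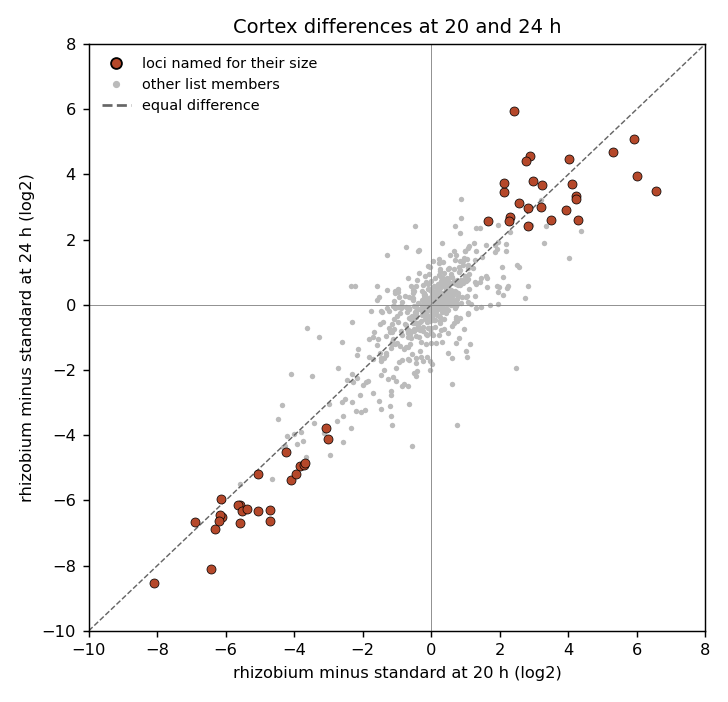
Difference between rhizobium and standard arrays in cortex at 24 h (vertical axis, log2) against that at 20 h (horizontal axis, log2), with loci named for their size in colour, other list members in grey and a dashed line where both are equal. The coloured loci lie below 0 on both axes or above 0 on both, as their choice required the same sign at both hours. HSP22.0 is lowest, at -8.09 and -8.54.

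The response was set against the pericycle, the layer inside the endodermis where lateral roots start, whose rhizobium and standard arrays are separate from those of the cortex. At these hours 1209 loci were called in cortex, against 113 in pericycle (0.416%). The pericycle count rests on 7 rhizobium and 5 standard arrays. Their median correlations within their treatment were 0.82 to 0.89 and 0.88 to 0.92, against 0.90 to 0.97 and 0.94 to 0.95 in cortex. The 2 counts therefore do not compare the sizes of the responses. The difference of the responses, cortex minus pericycle, was called at 964 loci (3.55%), with the cortex response the higher at 478 (1.76%) and the lower at 486 (1.79%); 514 were called without both replicate 2 arrays, 116 without replicate 2 of every group and 178 without replicate 3. Heat shock genes differed at 10 of 25 (median -2.68), organelle chaperones at 6 of 12, and plastid genome loci at 17 of 67, all with the lower response in cortex. Without both replicate 2 arrays these counts were 6, 6 and 8, and without replicate 2 of every group 3, 1 and 2. HSP22.0 averaged 5.21 ± 0.29 on pericycle rhizobium and 6.77 ± 2.56 on pericycle standard arrays (SD, n = 7 and 5), and its highest pericycle standard array (10.73) was below every cortex standard array. CR88 had a cortex response of -5.51 and a pericycle response of 1.33 (difference -6.84 ± 1.21, adjusted p = 9.4e-05). Epidermis and root hair markers averaged 7.99 to 9.84 on pericycle rhizobium and 7.14 to 7.97 on pericycle standard arrays, without overlap. Endodermis markers averaged 7.15 to 11.64 and 7.42 to 10.48. Their median pericycle responses were 1.36 and 1.26, with no member called. Whether other cells in the pericycle sorts contributed to the difference of the responses was not tested.

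Aquaporins gave the most calls with the response higher in cortex: 8 of 14 (median 0.93), 6 without both replicate 2 arrays and 1, PIP1;4, without replicate 2 of every group. PIP1;4 had a cortex response of 0.74 and a pericycle response of -1.04 (adjusted p = 0.021), a difference of 1.78 (adjusted p = 9.1e-05). PIP1;1, another plasma membrane channel, differed between the cell types by 1.95 (adjusted p = 0.001). Of the auxin response list 3 of 14 differed (median 1.38), all higher in cortex. IAA2 averaged 13.87 ± 0.11 on pericycle rhizobium and 13.79 ± 0.12 on pericycle standard arrays (SD, n = 7 and 5); cortex rhizobium arrays, at 13.41 to 13.66, lay below both means, and cortex standard arrays, at 10.85 to 12.68, lower still. IAA5 had the largest difference in the list, 5.63 ± 1.54 (adjusted p = 0.02), from a cortex response of 3.21 (adjusted p = 0.062) and a pericycle response of -2.41. SWEET17 differed by 5.95 (adjusted p = 0.0038), and EXPA17, with a pericycle difference of 0.05, by 3.04 (adjusted p = 0.049; 0.10 without both replicate 2 arrays). NAC045 had similar values in both, 3.39 in cortex and 3.80 in pericycle (adjusted p = 0.033), with a difference of -0.42 (adjusted p = 0.90).

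Over the whole course the cortex differences of the genes followed below mostly had 1 sign. At 1 to 16 h 7706 loci were called (28.4%), with 9 hours of arrays in the mean, and at 36 to 48 h 707 (2.6%). Neither the test of 20 to 24 h minus 1 to 16 h nor that of 36 to 48 h minus 20 to 24 h called a locus (0% each; 1012 and 591 at an unadjusted p below 0.05). IAA2, HB12, EXPA17 and TIP2;1 were higher on rhizobium arrays at 13 of 13 hours, with same-hour differences of 0.78 to 2.98, 1.19 to 3.38, 0.15 to 3.74 and 0.31 to 2.74. HSP22.0 and FIB2 were lower at 13 of 13 hours, by differences of -2.60 to -8.54 and -0.69 to -3.56. The 13 hours include 20 and 24 h, whose arrays gave the calls for which these genes are described. How many of all loci kept 1 sign over the 13 hours was not counted. CR88 was near 0 at 2 h (0.07) and lowest at 24 h. NRT1.1 differed most at 20 and 24 h (-2.45 and -2.29), with 0.03 at 8 h and -0.38 at 48 h; the change from 1 to 16 h was not called.

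**Figure D5:**
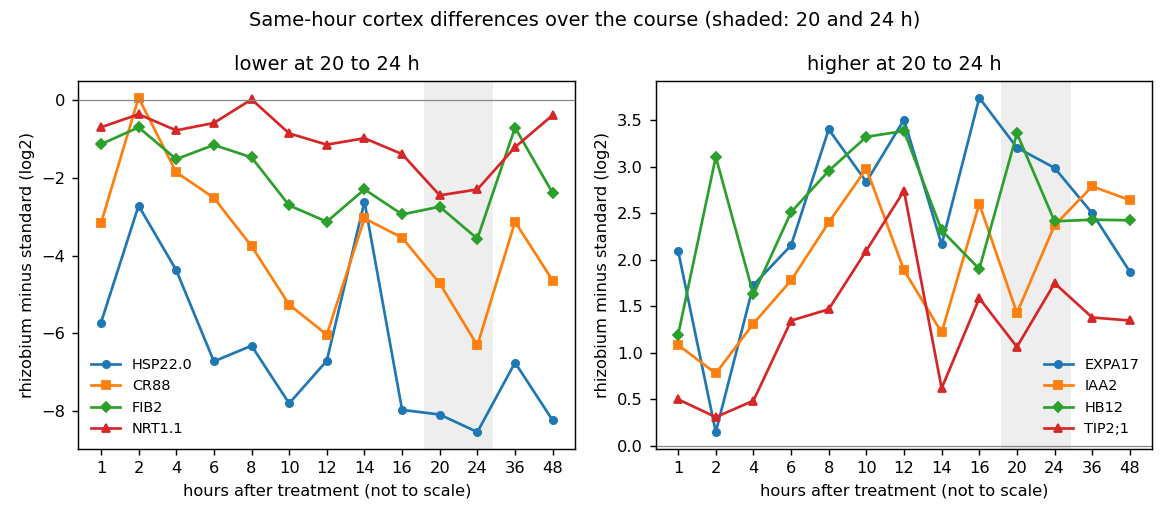
Same-hour difference between rhizobium and standard arrays in cortex (log2) at the 13 hours from 1 to 48 h, not to scale, for genes described in the text, with 20 and 24 h shaded. HSP22.0 stays between -2.60 and -8.54, and NRT1.1 reaches -2.45 and -2.29 in the shaded hours.

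Markers of other root cells gave 3 calls, of which TIP2;3 on the pericycle and stele list, described above, was the one kept without both replicate 2 arrays. Called were 1 of 9 pericycle and stele, 1 of 4 root cap and 1 of 9 phloem markers, all higher. Over all loci 4.45% were called in either direction, so these few calls are not read as a result about the markers. None of 9 endodermis, 8 suberin, 12 epidermis and root hair and 9 xylem markers was called by limma (0, 1, 2 and 1 at an unadjusted p below 0.05). SMB, a root cap factor, was higher by 1.85 (adjusted p = 0.0069; 0.088 without those arrays), with root cap list means of 5.93 to 7.28 on rhizobium, 5.86 to 6.83 on nitrogen and 5.36 to 5.75 on standard arrays. NAC86, a phloem factor related to NAC045, was higher by 2.28 (adjusted p = 0.049; without those arrays 1.11, adjusted p = 0.70), with its highest values on the replicate 2 arrays (9.75 and 9.53); the 9 phloem markers averaged 5.81 to 7.01 on rhizobium and 5.59 to 5.96 on standard arrays. CYP71B34, on the cortex list, was the 1 cortex marker called against standard, and lower (-2.33, adjusted p = 0.009; 0.12 without those arrays). Whether other cells contributed to the differences above was not tested.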

How the data were processed

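Total RNA of sorted cells was amplified, labelled with Cy3 and hybridised to custom NimbleGen arrays, per the labels' protocols. The authors deposited log2 intensities. RMA is the method named in the submitters' processing notes, its program and release being not given in the sources used here. Raw scans were not used here. The deposited table has 31524 rows, with values from 3.69 to 15.53 and array medians over these rows of 8.44 to 9.23. The number of arrays limits the precision.

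Rows were averaged to 27143 loci (3675 had several rows), with no further scaling or filter. RefSeq's annotation of TAIR10.1 held 26555 of these loci and named 10363 by a symbol. 1 pair of nearly identical arrays (correlation above 0.995) was averaged, leaving 235 arrays. In R 4.3.3, limma 3.58.1 (values read by the package data.table in version 1.17.8) fitted 1 mean per group of cell type, treatment and hour, which share the residual variance (prior df 3.04, residual df 155). Figures used matplotlib. Calls have a Benjamini-Hochberg adjusted p below 0.05 over all loci. "Higher" and "lower" compare arrays of the same hours. Numbers after ± are SE for differences and SD for levels.

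The groups, the 38 gene lists (534 entries used) and the tests were chosen with earlier results of these data known, and 4 further lists were added after seeing values. Loci named are the 15 largest differences in each direction among calls with the same sign at both hours, the 10 largest in each direction also called against nitrogen, the 5 largest in each direction for each interaction, and list members; the text gives a part of them. In simulated data 67, 67 and 66 genes among 27143 were changed by 1, 2 and 4 log2 units. The response at 20 to 24 h gave 6 false calls there. The simulated noise was normal and independent, with the same spread in every group and no arrays that stood apart. Alternatives covered scaling, row choice, variance, samples, replicate block, a heat shock covariate and left-out arrays. A planned description of promoter motifs was not run.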

Additional observations from a re-analysis of the deposited data

Results flagged for a closer look

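The responses to rhizobium at 20 to 24 h differed between cortex and pericycle at 964 loci by limma's test of the difference. The 5 largest differences with the cortex response higher were those of scpl16 (6.45), AT2G17680 (6.37), SWEET17 (5.95), IAA5 (5.63) and AT2G07981 (5.39). scpl16, which encodes a carboxypeptidase-like protein, had a cortex response of 2.06 that was not called (adjusted p = 0.36) and a pericycle response of -4.39. The 5 largest with the cortex response lower were those of AT1G71000 (-8.33), AT2G30000 (-7.33), AT3G25233 (-6.89), AT3G08980 (-6.88) and CR88 (-6.84). Replicate 1 of pericycle rhizobium at 24 h stood apart from the other 3 arrays of its group at AT1G71000, with a value of 5.70. Chance sets such an array apart in about 1 in 20 single checks. This group was checked at every locus named in this paragraph and for the heat shock mean. A flag somewhere among these checks is therefore more frequent than that.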

How the results depend on the processing

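Of the 131 differences of named loci, 92 kept their call without rhizobium replicate 2 at 20 and 24 h (a choice made after seeing the data) and 39 lost it. Array centring cost 12 calls, renewed quantile normalization 5, the highest row per locus 2, a variance trend 1 and cortex arrays alone 1; of 121 differences from standard, the 12 arrays alone cost 12 calls and 31 with the replicate block added. With the heat shock covariate 75 lost the call and 14 differences turned sign: AT1G52560 0.0085, HSP101 0.54, HSFA2 0.44, HSP17.6II 1.16, HSP17.6A 3.29, HSP17.4 1.53, AT1G53540 0.97, HSP90.1 0.90, HSFB1 0.097, MBF1C 0.035, BAG6 1.15, GOLS1 0.63, PRR7 0.30 and TIP2;3 -0.046. That covariate holds the level of these genes and the treatment at once. It left 238 calls for the response, 0 at 20 h, 15 at 24 h, 3 loci higher and 48 lower in both comparisons, and list counts of 3 (heat shock), 4 (nitrate-induced), 1 (auxin), 1 (abscisic acid), 1 (nucleolus), 4 (organelle chaperones), 2 (plastid) and 6 (mitochondrial). Cortex arrays alone gave 2761, 388 and 995 calls for the response, 20 h and 24 h, 789 against nitrogen, and 62 higher and 193 lower in both. The 12 arrays alone gave 2796, 393 and 1243, and 1 for 24 h minus 20 h; with the replicate block added they gave 1476, 107 and 359, and 1 nitrate-induced gene. The highest row per locus gave 1 for 24 h minus 20 h. Centring gave 4 nitrate-induced, 5 aquaporin and 6 mitochondrial genes, and 44.2% and 45.2% higher calls at 20 and 24 h, against 33.3% and 31.8%. Without both replicate 2 arrays the counts were 459, 62, 84 and 1 (24 h minus 20 h), 514 against pericycle, 232 against nitrogen, 4 and 26 in both, 1 nitrate-induced, 1 aquaporin, 3 nucleolar, 9 plastid and 1 mitochondrial. Leaving out 1 replicate number gave 364 to 555 calls for the response, 34 to 61 at 20 h, 84 to 190 at 24 h, 0 to 2 for 24 h minus 20 h, 116 to 973 against pericycle, 0 to 1 for the test against 1 to 16 h, 0 to 6 for that of 36 to 48 h, 17 to 233 against nitrogen, and 0 to 11 higher and 4 to 43 lower in both. Leaving out 1 array gave 691 to 1197, 63 to 167, 83 to 475 and 0 to 2 for the first 4 of these. List counts over left-out arrays and numbers ran from 16 to 20 (heat shock), 0 to 8 (nitrate-induced), 2 to 5 (auxin), 2 to 4 (abscisic acid), 1 to 3 (aquaporins), 2 to 5 (nucleolus), 8 to 10 (organelle chaperones), 6 to 22 (plastid) and 1 to 27 (mitochondrial). Replicate numbers did not pair the arrays: residual correlations were -0.0098 to 0.11 for the 6 pairs of the same number and -0.09 to 0.073 for the 12 others. The replicate block gave 1423 calls for the response, 448 against nitrogen and 877 against pericycle, and no named locus lost its call with it on all arrays. The cause of these changes was not tested. The effect of fewer arrays in a fit was not separated from that of the arrays left out.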

Other observations

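Loci lower on rhizobium arrays often lay beside another such locus. Of 621 lower loci that could be placed in the RefSeq order on the nuclear chromosomes, 143 (23%) had a directly adjacent locus that was also lower, while 4.53% of all 26555 placed loci had one. Of 526 higher loci 39 (7.41%) had an adjacent higher locus, against 3.92% of all placed loci. Among the 15 loci with the largest negative differences, AT4G21323 (-7.28) lies next to HSA32 (-5.81). AT3G08980 (-6.79) lies between ERDJ3A (-5.67) and AT3G08990 (-3.28, adjusted p = 0.0031). HSP23.6-MITO (-6.05) lies next to AT4G25210 (-1.06, adjusted p = 0.016). The placed loci include tandem gene families and overlapping genes, and whether probes or transcripts are shared between neighbours was not tested.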
